A study of Mus musculus with 6 samples.

Results

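OPC_1 is the main group of oligodendrocyte precursor cells in the authors' annotation of single-cell RNA-Seq of the neonatal mouse cortex. Its members were the cells that the deposited annotation gives this subtype, 1953 of 18393 cells in all and of the 17280 cells left without 1113 doublets. Oligodendrocyte precursors divide and migrate through the developing brain and give rise to the oligodendrocytes that wrap axons in myelin. Their survival and division depend on platelet-derived growth factor read by the receptor *Pdgfra*, and they carry the proteoglycan NG2, the product of *Cspg4*. The transcription factors *Olig2* and *Sox10* mark the lineage as a whole, before and after precursors differentiate.

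The study compared wild type mice (WT, FVB.129P2-Pde6b+ Tyrc-ch/AntJ) with *Fmr1* knockout mice (*Fmr1*-KO), namely FVB.129P2-Pde6b+ Tyrc-ch Fmr1tm1Cgr/J, 3 of each, at postnatal day 5. Both strains thus carry the Pde6b+ and Tyrc-ch alleles, the knockout is in every cell of the animal, and both sexes were used. Cells of the whole cortex, freed with papain, were captured with InDrop, which tags each transcript with a unique molecular identifier (UMI) and a cell barcode, in 17 libraries. WT 1, *Fmr1*-KO 1 and *Fmr1*-KO 2 formed the first collection batch with bead version 2, and WT 2, WT 3 and *Fmr1*-KO 3 the second with version 3.8, so batch and bead version cannot be told apart. Genes of the Y chromosome gave 148 to 309 UMIs in OPC_1 of 5 mice and 7 in *Fmr1*-KO 2, so sex was not balanced between the genotypes, and its part in the results was not tested.

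OPC_1 held 710552 to 1364540 UMIs per mouse, with a median of 2772 UMIs and 1720 genes per cell, and the median per mouse ranged from 1831 in WT 2 to 3699 in WT 1. Levels below are CPM, the UMIs of a gene scaled to 1e+06 UMIs of all OPC_1 cells of a mouse, given as mean ± SD over mice. Cell barcodes recurred between libraries of the same mouse far more than between mice. The 17 pairs of libraries of 1 mouse shared 33 to 353 barcodes, and the 119 pairs from 2 mice shared 0 to 21. Of the OPC_1 cells, 472 had a barcode found again in another library of the mouse, from 6.25% of the cells in *Fmr1*-KO 1 to 51.2% in *Fmr1*-KO 2. Where such a barcode had an OPC_1 record, all its records were OPC_1 in 186 of 210 cases. Whether such records are the same cell was not tested. Counts and shares of cells may therefore hold a cell more than once, and the main ones are also given with each barcode counted once per mouse. The comparison of genotypes was repeated on the 1481 cells with an unshared barcode.

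The markers set OPC_1 apart from most other subtypes, though only *Pdgfra* was highest there. *Pdgfra* (mm10 chromosome 5, 75152292 to 75198215, plus strand) was at 3025, 3281 and 3946 CPM in WT 1 to WT 3 and at 3151, 3275 and 3260 CPM in *Fmr1*-KO 1 to *Fmr1*-KO 3, the order kept below. The mean over the 6 mice was 3323 ± 321 CPM, against 566 ± 41.4 CPM (n = 3) in fibroblasts, the next subtype, and 76.7 ± 72.6 CPM in oligodendrocytes. A *Pdgfra* UMI was found in 94.1% of OPC_1 cells and in 5.09% of excitatory neurons, which should lack it and had a median of 1274 UMIs. *Cspg4* (chromosome 9, 56865033 to 56899870, plus strand) was at 872 ± 130 CPM in OPC_1, within the spread of pericytes at 904 ± 94.6 CPM, and at 41.7 ± 26.8 CPM in oligodendrocytes. *Olig2* (chromosome 16, 91225457 to 91228677, plus strand) was at 1107 ± 71.1 CPM in OPC_1, at 943 ± 232 CPM in oligodendrocytes and at 1498 ± 385 CPM (n = 5) in OPC_2, a group of 104 cells. The study's text describes a small group of neural stem cells beside the precursors, a name that the deposited annotation does not use. *Sox10* (chromosome 15, 79154908 to 79165240, minus strand) was at 1146 ± 103 CPM, below the 1595 ± 224 CPM of oligodendrocytes in each mouse and above the 297 ± 122 CPM of OPC_2, which also had less *Pdgfra* (401 ± 134 CPM). All 4 markers were thus present at a high level, and a UMI of *Cspg4*, *Olig2* or *Sox10* was found in 76.6%, 82.6% and 83.2% of the cells.

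**Figure D1:**
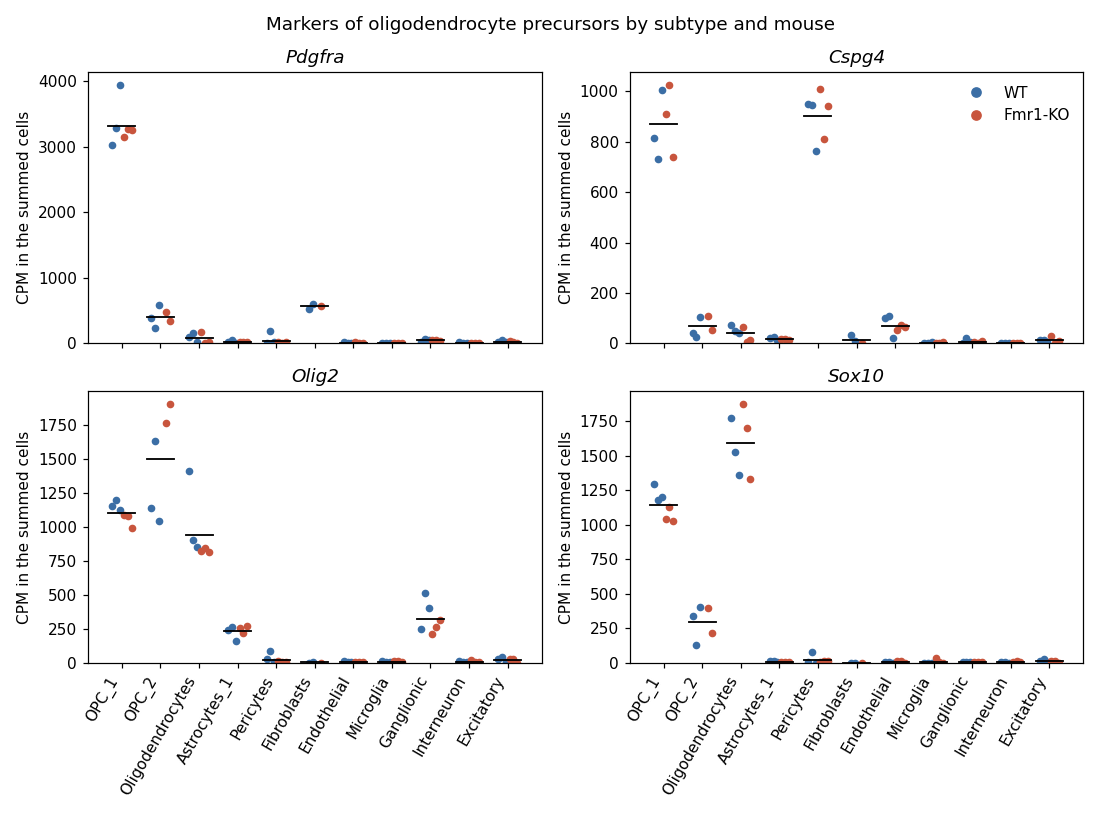
Level of *Pdgfra*, *Cspg4*, *Olig2* and *Sox10* in CPM (vertical axes) in 11 subtypes (horizontal axis), with 1 point per mouse with 10 or more cells of the subtype, WT in blue and *Fmr1*-KO in red, and the mean as a line. *Pdgfra* lies between 3025 and 3946 CPM in OPC_1 and its mean is 566 CPM in fibroblasts, whereas *Cspg4* is as high in pericytes, *Olig2* extends to OPC_2 and oligodendrocytes, and *Sox10* is highest in oligodendrocytes.

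Of the 2379 genes with at least 100 CPM in OPC_1, 206 (8.66%) were higher there than in each of the other 14 subtypes that had 10 or more cells in at least 3 mice, and 35 were at least 2 times the next subtype. These genes are a description of the cluster, which was drawn from the same counts, and were not tested. Of the 25 genes with the largest ratio to the next subtype, chosen by the means of these mice, 24 were highest in OPC_1 in all 6 mice. The exception was *Tmem121*, which led in 5. *Pcdh15*, a protocadherin (chromosome 10, 73099342 to 74649737, plus strand), came first, with 488 ± 36.3 CPM and 7.25 times the level of excitatory neurons (67.4 ± 44.7 CPM). *Pdgfra* followed with 5.87 times the level of fibroblasts. *Cdo1*, which encodes cysteine dioxygenase, was at 670 ± 112 CPM and 5.24 times the level of Astrocytes_1, the main astrocyte subtype. *Lhfpl3* was at 1199 ± 71.6 CPM and 4.40 times the level of oligodendrocytes.

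The other leading genes were of varied function. They included the adaptor *Shc4* (151 ± 30.4 CPM, 4.59 times OPC_2), the endocytic protein *Epn2* (838 ± 95.9 CPM, 3.76 times oligodendrocytes) and the palmitoyltransferase *Zdhhc2* (715 ± 117 CPM, 2.92 times oligodendrocytes). The membrane metalloproteinases *Mmp15* (751 ± 81.6 CPM, 3.61 times pericytes) and *Mmp16* (236 ± 50.4 CPM, 2.47 times Cajal Retzius cells) act on the extracellular matrix. *Ugdh* (300.3 ± 27.03 CPM, 3.32 times OPC_2) makes the sugar precursor of glycosaminoglycans, and *Chst11* (165 ± 38.6 CPM, 2.36 times OPC_2) adds sulfate to chondroitin. *Cacng4*, an auxiliary subunit of AMPA-type glutamate receptors (438 ± 90.4 CPM, 3.33 times interneurons), the AMPA receptor subunit *Gria3* (351 ± 36.7 CPM, 2.81 times oligodendrocytes) and the potassium channel *Kcnd2* (248 ± 32.8 CPM, 2.58 times excitatory neurons) were also among them. The adhesion molecule *Cntn1*, at 1891 ± 117 CPM and 2.46 times the level of excitatory neurons, was also found in 52.6% of excitatory cells. The list further held *Anks1b*, *C1ql3*, *Dcaf12l1*, *Qpct*, *1700025G04Rik*, *Il1rap*, *Emid1*, *Lppr5*, *Tmem121* and *Lnx1*, at 2.46 to 3.52 times the next subtype. *Chst11* at 165 CPM, with 2.36 times, was the last inside the list, and *Megf11* with 2.34 times the first outside it.

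Precursors and oligodendrocytes, the cells they give rise to, were separated by division genes on the one side and myelin genes on the other. Of the 2813 genes with at least 100 CPM in either, 176 were at least 4 times higher and 122 at least 4 times lower in OPC_1 than in the 354 oligodendrocytes. All 20 genes at the extremes had the same direction in each of the 6 mice. They were chosen by the means of those same mice, so this is no separate support. Of the 10 with the highest ratio, 6 serve DNA replication or mitosis. *Top2a*, the topoisomerase that untangles replicated chromosomes, was at 323 ± 63.6 CPM in OPC_1, where 21.2% of cells had a UMI, and gave 2 UMIs in all oligodendrocytes. *Mki67*, the gene of the Ki-67 antigen, was at 249 ± 59.2 CPM in OPC_1 and gave 3 UMIs in oligodendrocytes. *Ckap2l*, *Rrm2*, *Racgap1* and *Cdk1* were at 116 to 198 CPM in OPC_1 and gave 2 to 4 UMIs in oligodendrocytes. The others were *Pdgfra*, the adenosine receptor *Adora1* (180 ± 56.3 against 2.53 ± 3.98 CPM), *Vstm2b* and *Ildr2*.

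Of the 10 genes with the lowest ratio, several belong to myelin or to newly formed oligodendrocytes. *Enpp6*, an early marker of differentiating oligodendrocytes, was at 0.646 ± 0.521 CPM in OPC_1 and at 822 ± 122 CPM in oligodendrocytes. *Mag*, the myelin-associated glycoprotein, was at 0.769 ± 1.52 and 652 ± 152 CPM. *Mbp*, a principal protein of myelin, was at 59.2 ± 3.95 CPM in OPC_1, with little spread between mice, and at 8412 ± 2999 CPM in oligodendrocytes. *Epcam* had no UMI in OPC_1 and 155 ± 25.02 CPM in oligodendrocytes. *Cdk18*, *Rassf10*, *Ttyh2*, *Parvb* and *Cbln2* were at 6.17 CPM or less in OPC_1 and at 102 to 530 CPM in oligodendrocytes.

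**Figure D2:**
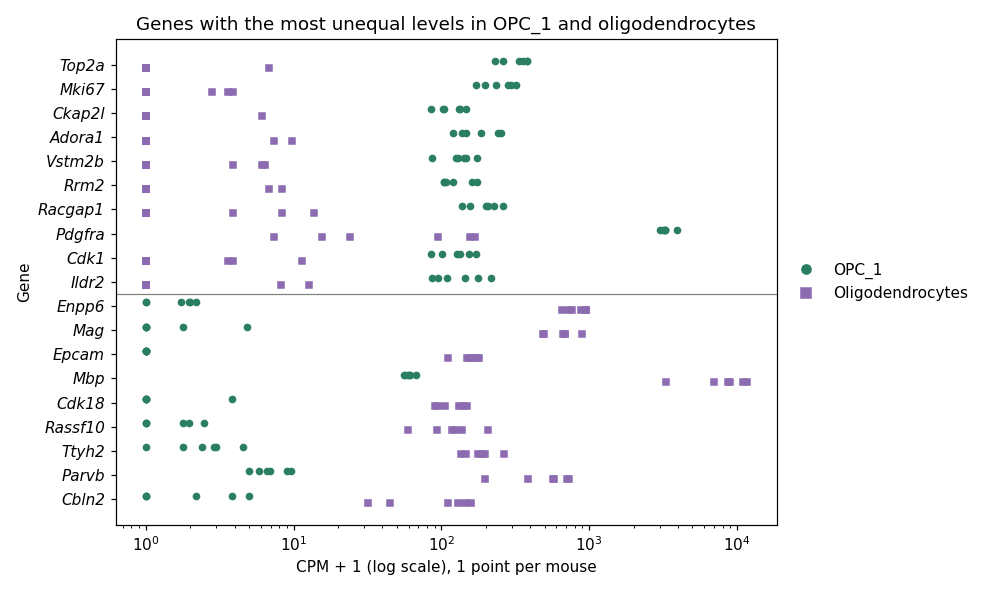
CPM plus 1 on a log scale (horizontal axis) for the 10 genes with the highest ratio of OPC_1 to oligodendrocytes and 9 of the 10 with the lowest (vertical axis), with 1 circle per mouse for OPC_1 and 1 square per mouse for oligodendrocytes. Circles and squares are apart for each gene, from *Top2a* at 323 CPM in OPC_1 down to *Enpp6* at 822 CPM in oligodendrocytes.

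The genes that lead from precursor to oligodendrocyte were already present in OPC_1 in part. Their summed level over a list of 23 genes of committed precursors ranged from 3663 to 4597 CPM in OPC_1, against a mean of 26512 CPM in oligodendrocytes. *Gpr17*, a receptor that peaks as precursors commit, was at 1229 ± 239 CPM with a UMI in 81.3% of OPC_1 cells, and at 3963 CPM in oligodendrocytes. *Fyn*, a kinase of myelination, was at 625 ± 46.1 and 4679 CPM, and *Bcas1*, a marker of early myelinating cells, at 266 ± 46.5 and 5058 CPM. Over 35 myelin genes the sum was 3295 to 4128 CPM in OPC_1 and 33710 CPM in oligodendrocytes, and in OPC_1 it was led by *Gpm6b* (1548 ± 198 CPM), which is higher still in astrocytes (4297 CPM). In contrast, *Sox9* (529 ± 73.5 against 21.5 CPM) and the cyclin *Ccnd1* (531 ± 75.8 against 34.8 CPM) were higher in OPC_1 than in oligodendrocytes.

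OPC_1 expressed receptors and channels for neurotransmitters and a broad set of matrix proteins. Of 44 genes of glutamate and GABA receptors, 6 were highest in OPC_1 of all subtypes, and their sum was 3557 to 4173 CPM, against a mean of 1878 CPM in oligodendrocytes. *Gria2*, the subunit that limits calcium flow through AMPA receptors, was at 1120.5 ± 185 CPM, near the 1215 CPM of excitatory neurons. *Grin3a*, a subunit of NMDA receptors, was at 306 ± 17.8 CPM, against 176 CPM in excitatory neurons and 63.1 CPM in oligodendrocytes. Of 46 genes of proteoglycans and extracellular matrix, 9 were highest in OPC_1. *Cspg5* (3262 ± 295 CPM against 2185 CPM in Astrocytes_1), the syndecan *Sdc3* (1174 ± 159 CPM against 682 CPM in OPC_2) and the protease inhibitor *Serpine2* (1763 ± 157 CPM against 1176 CPM in Astrocytes_1) led them. *Bcan* and *Ptprz1* were at 1672 ± 188 and 1434 ± 252 CPM, below the 2868 and 2816 CPM of Astrocytes_1. Of 40 growth factor receptors and feedback genes, 5 were highest in OPC_1, among them the endothelin receptor *Ednrb* (1111 ± 201 CPM against 802 CPM in Astrocytes_1) and the neurotrophin receptor *Ntrk3* (257 ± 38.6 CPM against 189 CPM in excitatory neurons). Of 40 genes of ion channels and pumps, 2 were highest in OPC_1. Among all genes with at least 100 CPM in OPC_1 the share was 8.66%. These list counts hold members at any level, for which the share over all genes was not counted.

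OPC_1 was not uniform. The authors' clustering of the lineage spread its cells over 9 clusters of 58 to 406 cells, and the genes that lead each are again a description. Clusters 10, 12, 4 and 2, with 254, 151, 378 and 406 cells, had 3459 to 4452 CPM of *Pdgfra* in their pooled cells. Cluster 12 had the highest *Gpr17* (1793 CPM) and *Neu4* (307 CPM), a sialidase of committing precursors. It also had the highest *Pdgfra* (4452 CPM), *Cspg4* (1253 CPM) and *Acan* (141 CPM), with *Bcas1* at 198 CPM. Cluster 2 was led by the neuropeptide gene *Npy*, at 104 CPM and 11.7 times the other OPC_1 cells, and had a median of 1312 UMIs per cell. Of its 406 cells, 152 came from WT 2. Cluster 1, with 216 cells, was led by *Draxin* (7.43 times the other cells) and *Dll3* (5.97 times), a ligand of the Notch family. It held less *Pdgfra* (1793 CPM) and *Cspg4* (473 CPM) and more *Bcas1* (663 CPM) and *Bmp4* (59.4 CPM) than the former clusters. Its *Gpr17* (1077 CPM) and *Neu4* (77.9 CPM) were lower than in them. The genes of commitment thus did not point to the same cluster.

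Dividing cells were gathered in clusters 5, 9 and 11, with 180, 97 and 58 cells. The authors' phase calls placed 91.7%, 81.4% and 84.5% of these cells outside G1, against 0.394% to 26.8% of the cells of the other clusters. *Mki67* was at 1071, 927 and 1016 CPM in them and at 3.43 to 124 CPM in the others. They differed from each other in the remaining genes. Cluster 5 kept *Pdgfra* at 3520 CPM and *Gpr17* at 1422 CPM, and cluster 11 had 2004 and 433 CPM, with *Dll3* at 235 CPM, against 37.7 CPM in cluster 5.

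Cluster 7 was led by genes of another cell type. Its 213 cells had a median of 1027 UMIs, and *C1qa*, *Ccl4*, *Tnf*, *Ccl3* and *Cxcl10*, genes of microglia and inflammation, led it at 45.5 to 55.2 times the other OPC_1 cells. A *C1qa* UMI was found in 18.3% of its cells and in 1.03% of the other OPC_1 cells, while *Pdgfra* was found in 69.01% and 97.1%. A UMI of any of 10 microglia markers was found in 23.5% of its cells, in 11.5% of the other OPC_1 cells (median of 3125 UMIs) and in 20.6% of excitatory neurons (median of 1274 UMIs), which should lack them. Only 4 of the cells came from WT 3, and the other mice had 29 to 71, with the most in WT 2. Summed over these markers, OPC_1 held 608 CPM in WT 2 and 27.2 to 144 CPM in the other mice, against 20408 CPM in microglia, and without cluster 7 it held 27.3 to 146 CPM, so leaving it out lowered the sum mainly in WT 2. Markers of other types were low in all 6 mice. Astrocyte markers, 14 genes, summed to 1509 to 2163 CPM in WT and 1524 to 2024 CPM in *Fmr1*-KO mice against 28630 CPM in Astrocytes_1, and neuron markers, also 14, to 473 to 1232 CPM and 459 to 1218 CPM against 12253 CPM in excitatory neurons. The neuron sums differed by batch, with 1150 to 1232 CPM in the mice of batch 1 and 459 to 700 CPM in those of batch 2. Endothelial markers (8 genes), pericyte and fibroblast markers (9 genes) and ependymal markers (5 genes) summed to at most 90.6 CPM in each mouse. None of these markers was at 0 in all of OPC_1, and their part in the genotype values was not tested except by leaving out cluster 7.

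**Figure D3:**
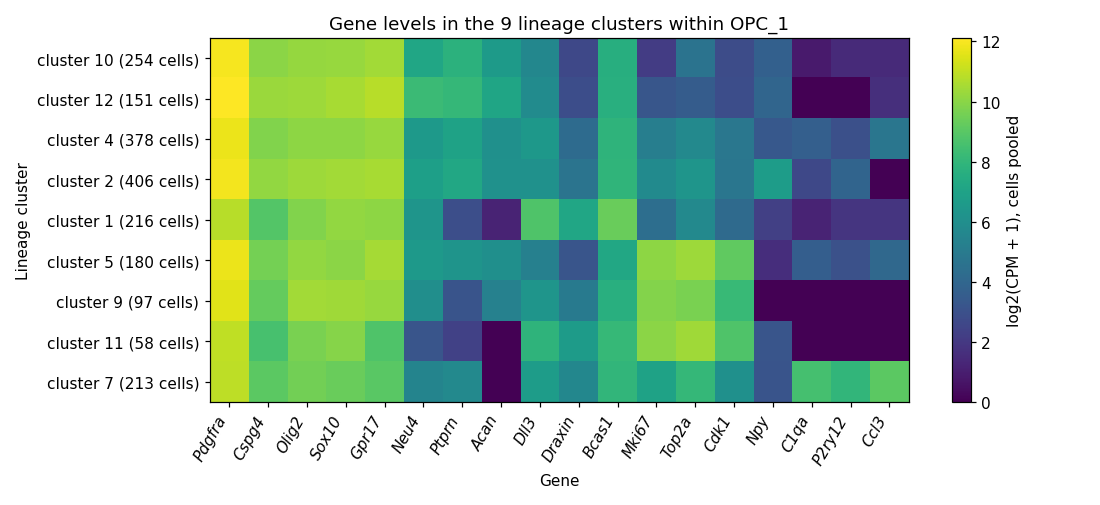
Levels of 18 genes (horizontal axis) in the pooled cells of the 9 lineage clusters within OPC_1 (vertical axis, with the number of cells), as log2(CPM + 1) in colour. *Mki67*, *Top2a* and *Cdk1* are high in clusters 5, 9 and 11, *Dll3* and *Draxin* in cluster 1, *Npy* in cluster 2, and *C1qa*, *P2ry12* and *Ccl3* in cluster 7.

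To see whether loss of *Fmr1* altered the number of precursors, OPC_1 cells were counted in each mouse. The WT mice had 270, 473 and 327 of them, or 10.2%, 12.8% and 9.58% of their cells other than doublets. The *Fmr1*-KO mice had 208, 293 and 382, or 10.3%, 11.4% and 13.02%. The shares overlapped. edgeR's quasi-likelihood test of the cell numbers, with batch as a covariate and over 18 subtypes, gave a log2 fold change of 0.15 (SE 0.34, FDR = 0.887). With each barcode counted once, OPC_1 took 10.3%, 13.2% and 9.69% of the barcodes in WT and 10.3%, 10.6% and 13.3% in *Fmr1*-KO mice. Within the lineage, OPC_1 was 85.2%, 80.2% and 80.9% of the cells in WT and 87.0%, 83.2% and 75.05% in *Fmr1*-KO mice, again without a separation.

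The share of dividing precursors was compared in several ways, which did not give the same picture. With every cell thinned to 700 UMIs, which left out 1 cell, 66.5% ± 5.68 (SD, n = 3) of OPC_1 cells in WT and 66.9% ± 5.397 in *Fmr1*-KO mice held at least 2 UMIs of genes of S phase and G2/M. The shares overlapped, and a two-sided exact permutation test gave p = 0.9. The difference of 0.35 percentage points was -2.57 within batch 1 and -1.81 within batch 2. This measure had a high background, since 48.6% of WT and 57.05% of *Fmr1*-KO excitatory neurons, which do not divide, passed it too. A narrower core of 10 proliferation genes (*Mki67*, *Top2a*, *Cdk1*, *Ccnb2*, *Birc5*, *Nusap1*, *Cenpf*, *Ube2c*, *Tpx2* and *Aurkb*), chosen after the first measure was seen, was found in 24.4%, 25.2% and 29.4% of thinned OPC_1 cells in WT and in 30.3%, 39.2% and 27.7% in *Fmr1*-KO mice. Oligodendrocytes held it in 5.75% of cells in WT and 8.71% in *Fmr1*-KO mice, and Astrocytes_1 in 17.3% and 14.7%. Excitatory neurons held it in 11.6% and 15.2%, so their mean was also higher in *Fmr1*-KO mice. Their difference was 4.31 percentage points within batch 1 and -2.64 within batch 2. In OPC_1 the groups overlapped, as *Fmr1*-KO 3 lay below WT 3 (exact permutation test, two-sided, p = 0.2). The difference of the means was 6.09 percentage points, with 10.3 within batch 1 and 0.46 within batch 2. Without cluster 7 the groups did not overlap (exact permutation test, two-sided, p = 0.1), with *Fmr1*-KO 3 at 29.6% and WT 3 at 29.4%. The difference was then 10.1 percentage points within batch 1 and 3.08 within batch 2. In the sums per mouse these 10 genes made up 1245, 1211 and 1944 CPM in WT and 1804, 1977 and 1751 CPM in *Fmr1*-KO mice. The p-values of these measures were not adjusted for their number.

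The phase calls that the authors deposited placed 15.2%, 15.4% and 18.3% of OPC_1 cells of WT mice in G2M and 20.2%, 26.96% and 20.2% of those of *Fmr1*-KO mice, so each *Fmr1*-KO mouse was above each WT mouse. The two-sided exact permutation test gave p = 0.1, the smallest that 3 against 3 mice allow. The share of G2M calls was not planned beforehand, unlike the first measure above, the thinned share over the S phase and G2/M lists. The difference of the means was 6.11 percentage points, with 8.39 within batch 1 and 3.27 within batch 2. The groups also did not overlap with each barcode counted once (13.2%, 14.9% and 18.2% against 20.3%, 19.5% and 20.1%) or without cluster 7. All calls outside G1 together overlapped, with 19.3%, 17.97% and 22.0% in WT and 22.6%, 29.4% and 21.2% in *Fmr1*-KO mice (exact permutation test, two-sided, p = 0.2), and they also overlapped with each barcode counted once. Calls of S phase went the other way, with 4.07%, 2.54% and 3.67% in WT and 2.40%, 2.39% and 1.05% in *Fmr1*-KO mice. Here each *Fmr1*-KO mouse was below each WT mouse, though WT 2 was close to *Fmr1*-KO 1 and *Fmr1*-KO 2. G2M calls were made in 0% to 3.06% of oligodendrocytes, and in Astrocytes_1 in 10.4% of WT and 8.62% of *Fmr1*-KO cells. In ganglionic eminence precursors they were made in 60.8% ± 4.39 of WT and 65.6% ± 5.15 of *Fmr1*-KO cells, and the mice overlapped. They were also made in 9.61% of WT and 10.9% of *Fmr1*-KO excitatory neurons, which do not divide. The method of the phase calls is not given in the sources used here, and no depth was matched in them. *Fmr1*-KO 2, with the highest share over all records and the lowest of the *Fmr1*-KO mice with each barcode counted once, had a median of 1910 UMIs per OPC_1 cell, and the part of depth was not tested.

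**Figure D4:**
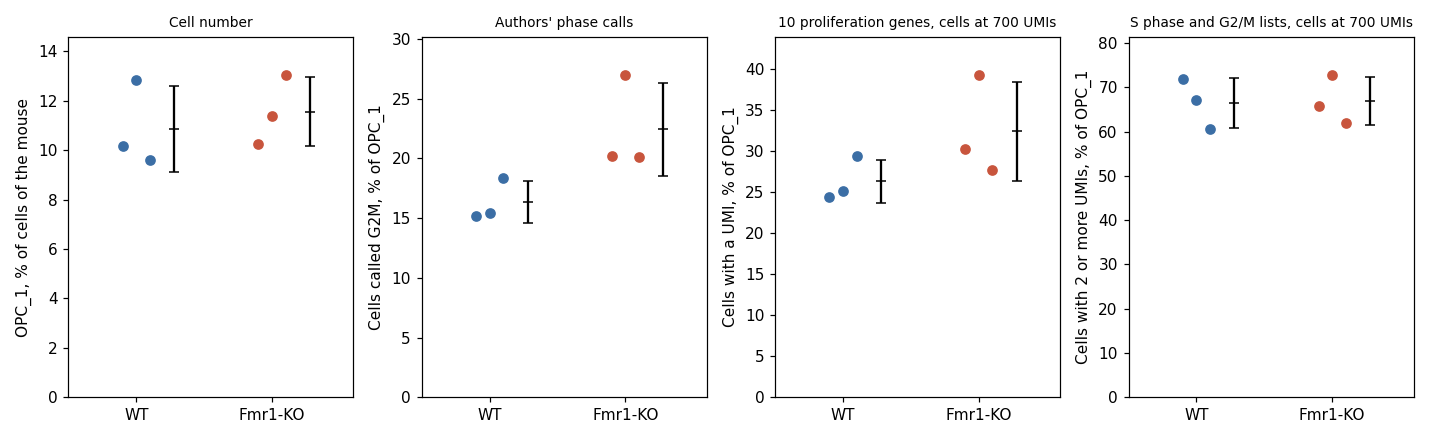
OPC_1 cells as a percent of the cells of each mouse, and percents of OPC_1 cells called G2M by the authors, holding a UMI of 10 proliferation genes, or holding 2 or more UMIs of the S phase and G2/M lists (vertical axes, from 0), for WT in blue and *Fmr1*-KO in red. Points are mice and bars are mean ± SD. Of the measures drawn, only the G2M calls do not overlap between genotypes (15.2% to 18.3% in WT, 20.2% to 26.96% in *Fmr1*-KO mice). The G2M calls were not a planned measure.

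Gene expression was then compared between genotypes with the mice as replicates. edgeR tested the genes detected in 15% or more of the OPC_1 cells, and 1 of them (0.0245%) passed FDR under 0.01 and the minimum fold change of the study's methods, the knocked-out gene itself. *Fmr1*, which encodes the RNA-binding protein FMRP (chromosome X, 68678541 to 68717963, plus strand), was at 72.8, 89.6 and 123 CPM in WT and at 28.1, 26.2 and 24.2 CPM in *Fmr1*-KO animals. All *Fmr1*-KO mice were below all WT mice. The log2 fold change was -1.78 (SE 0.22, edgeR FDR = 0.00416), with -1.41 within batch 1 and -2.10 within batch 2, and it lost its call without WT 3, *Fmr1*-KO 1 or *Fmr1*-KO 3 in turn (FDR 0.0101, 0.0406 and 0.188). In cells with an unshared barcode it was -1.89 (edgeR FDR = 0.000513). InDrop reads the 3′ end of transcripts, away from the interrupted exon of this allele, so the remaining UMIs do not tell whether an intact transcript was made. The autosomal paralogs *Fxr1* (87.7 ± 5.63 CPM) and *Fxr2* (81.9 ± 15.8 CPM) had log2 fold changes of 0.04 and -0.18 (unadjusted p = 0.78 and 0.26), and *Cyfip1* and *Cyfip2*, partners of FMRP, of -0.10 and 0.01.

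No other gene passed. At an unadjusted p under 0.05, 96 genes were higher (2.36%) and 77 lower (1.89%) in *Fmr1*-KO mice, and 95 genes (2.33%) had every *Fmr1*-KO mouse above every WT mouse and 181 (4.44%) the reverse. The median log2 fold change over all genes tested was 0.0018. Next to *Fmr1* stood *Rps27*, a ribosomal protein gene, at 185, 159 and 196 CPM in WT and 235, 292 and 325 CPM in *Fmr1*-KO mice, without overlap (log2 0.72, SE 0.13, edgeR FDR = 0.148). The authors ignored reads with several positions, so reads that fit both *Rps27* and its near-identical copy *Rps27rt* are missing from these counts, and the level of each gene is uncertain. *Rpl22l1*, the paralog of a ribosomal protein, was at 92.7, 162 and 134 CPM and at 148, 166 and 224 CPM, which overlapped (log2 0.69, SE 0.13, edgeR FDR = 0.148). The next genes by p with the same sign within both batches were *Nme1*, *H2afv*, *Smc6*, *Igf2bp3*, *Ndufa4* and *Smdt1*, with log2 fold changes of 0.40 to 0.56 and FDR of 0.947. Of these, *Smc6*, a subunit of a chromosome maintenance complex, was at 122, 108 and 131 CPM in WT and 149, 169 and 162 CPM in *Fmr1*-KO mice. *Igf2bp3*, an RNA-binding protein of fetal tissue, was at 75.8, 46.7 and 68.8 CPM and at 108, 113 and 84.3 CPM. *Smdt1*, a regulator of the mitochondrial calcium uniporter, likewise did not overlap.

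In the other direction stood *Nrxn3*, *Hira*, *Spire1*, *Cbr3*, *Epas1*, *Grm5*, *Fbxo11* and *Gnao1*, with log2 fold changes of -0.62 to -0.40 and FDR of 0.947. *Nrxn3*, a presynaptic adhesion protein, was at 163, 116 and 140 CPM in WT and at 115, 113 and 81.3 CPM in *Fmr1*-KO mice, which did not overlap, though WT 2 and *Fmr1*-KO 1 were close. *Epas1*, the hypoxia-inducible factor HIF-2α, was at 216, 295 and 318 CPM and at 203, 187 and 180 CPM. Its log2 fold change of -0.46 was -0.15 within batch 1 and -0.76 within batch 2, and it was -0.15 without *Fmr1*-KO 3 and -0.74 without WT 1. *Fbxo11*, part of a ubiquitin ligase, was at 146, 153 and 174 CPM and at 122, 104 and 113 CPM. *Hira*, a histone chaperone, was at 72.8, 95.3 and 95.3 CPM and at 49.3, 45.3 and 66.0 CPM. *Grm5*, the metabotropic glutamate receptor mGluR5, was at 156, 132 and 100.1 CPM and at 103, 113 and 79.9 CPM, which overlapped, and its log2 fold change of -0.51 (SE 0.15) became 0.0034 with each cell thinned to 700 UMIs. Among the markers, *Sox10* was at 1299, 1179 and 1200 CPM in WT and at 1041, 1129 and 1025 CPM in *Fmr1*-KO mice without overlap, but its log2 fold change of -0.22 (SE 0.11) had an unadjusted p of 0.063. *Olig2* also did not overlap (1125 to 1198 against 994 to 1088 CPM, log2 -0.14, unadjusted p = 0.21), and *Pdgfra* and *Cspg4* did.

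Gene lists were compared with these shares of all genes tested, and apart from *Fmr1* no list had a gene called. Of the 4076 genes tested, 2058 had a positive and 2018 a negative fold change. Of 19 tested genes of the G2/M list, 16 had a positive fold change and 6 (*Mki67*, *Cenpf*, *Top2a*, *Smc4*, *Rangap1* and *Tubb4b*) an unadjusted p under 0.05 in that direction, against 2.36% of all genes, though 0 of the 19 were without overlap between genotypes. *Mki67* was at 171, 195 and 280 CPM in WT and at 232, 321 and 295 CPM in *Fmr1*-KO mice (log2 0.50, SE 0.16, edgeR FDR = 0.947). The median of the list was 0.24, with 0.45 within batch 1 and 0.08 within batch 2, and it ranged from 0.04 without WT 1 to 0.47 without *Fmr1*-KO 3. In cells called G1 it was 0.03, but this choice itself leaves out the cells called G2M, so the value does not locate the difference. Of the 10 tested genes of S phase, 4 were positive, none had an unadjusted p under 0.05, and the median was -0.03. Of 6 tested D cyclins and cell cycle inhibitors 1 was positive, with a median of -0.07.

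Of 82 tested ribosomal protein genes 78 had a positive fold change, against 2058 of all 4076 genes. In that direction 5 had an unadjusted p under 0.05 (*Rps27*, *Rpl22l1*, *Rpl26*, *Rpl32* and *Rps28*), against 2.36% of all genes. The median of the list was 0.13, but it was -0.18 within batch 1 and 0.40 within batch 2. *Fmr1*-KO 3 held 102190 CPM of these genes and the other 5 mice 75208 to 87588 CPM, and the median was -0.17 without it and 0.42 without WT 1. Of 72 respiratory chain genes 58 were positive and 5 of them had an unadjusted p under 0.05, against 2.36% of all genes. The median of these 72 genes was 0.09 (-0.06 within batch 1 and 0.21 within batch 2). It turned to -0.06 without *Fmr1*-KO 3 and was 0.24 without WT 1. *Ndufa4* was at 332, 410 and 472 CPM in WT and at 519, 391 and 553 CPM in *Fmr1*-KO mice. Of 22 genes of cholesterol and fatty acid synthesis, which precursors need to build membrane, 16 were positive, with medians of 0.25 and -0.07 within the batches. Of the 16, 1 (*Nsdhl*) had an unadjusted p under 0.05, against 2.36% of all genes.

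Lists on the identity of the cells lay near 0 in the fit over both batches. The medians were -0.05 for 31 transcription factors of the lineage, -0.01 for 17 growth factor receptors and feedback genes, 0.02 for 25 matrix genes, -0.0072 for 12 genes of committed precursors and 0.02 for 9 myelin genes. Within batch 1 and batch 2 the medians were 0.09 and -0.15 for the growth factor list and 0.15 and -0.12 for the matrix genes. Those of the other lists lay between -0.10 and 0.0057 within the batches. Among these 5 lists 1 gene had an unadjusted p under 0.05, *Sema5a* (log2 0.30, SE 0.13), a guidance protein of the committed list. Of all genes tested, 2.36% were higher and 1.89% lower at that threshold. Of the 31 transcription factors, 6 had every *Fmr1*-KO mouse below every WT mouse, against 4.44% of all genes, and 1 above. Of 15 glutamate and GABA receptor genes 12 were negative, with a median of -0.09 (-0.0039 within batch 1 and -0.18 within batch 2), and *Grm5* had an unadjusted p under 0.05. Of 21 ion channels and pumps 13 were negative, also with a median of -0.09, and *Atp1b2* had an unadjusted p under 0.05. Of 38 synaptic genes 24 were negative, with a median of -0.06. Of the 24, 4 (*Nrxn3*, *Sv2a*, *Camk2b* and *Lrrtm2*) had an unadjusted p under 0.05, against 1.89% of all genes in that direction. *Nr4a1* (log2 -0.46, unadjusted p = 0.013) was the 1 such gene of 10 immediate early and dissociation genes.

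**Figure D5:**
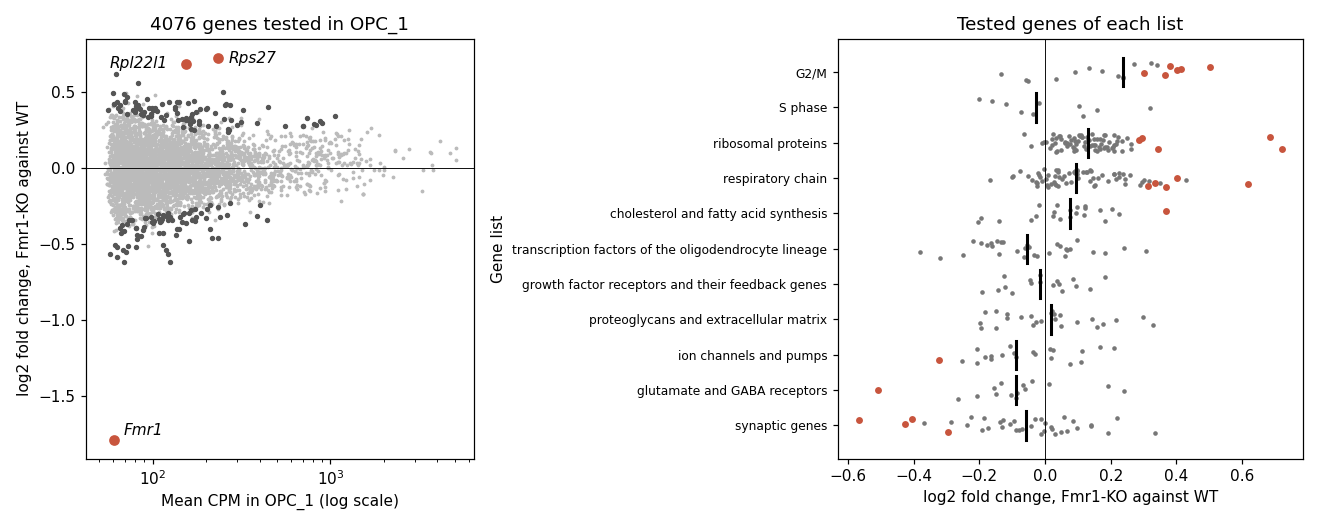
Left, log2 fold change of *Fmr1*-KO against WT (vertical axis) and mean CPM on a log scale (horizontal axis) of the genes tested in OPC_1, dark where the unadjusted p was under 0.05. Right, the same fold changes (horizontal axis) of the tested genes of 11 lists (vertical axis), red where the unadjusted p was under 0.05, with the median as a bar: *Fmr1* stands alone at -1.78, and the medians of the lists lie between -0.09 and 0.24.

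Whether the genotype acted differently on OPC_1 than on other cells was tested with the difference of the fold changes in the same mice. Against oligodendrocytes 0 of 3572 genes passed FDR under 0.05 in edgeR (96 at an unadjusted p under 0.05), and against Astrocytes_1 0 of 3489 (189). *Fmr1* was at 80.9 CPM in WT and 18.03 CPM in *Fmr1*-KO Astrocytes_1, and the difference from OPC_1 was 0.36 (SE 0.25, edgeR FDR = 0.906). The 3 smallest p-values against oligodendrocytes, named after they were seen, were those of *Slc1a2* (difference 1.87, SE 0.40, edgeR FDR = 0.120), *Ptn*, a secreted growth factor (1.34, SE 0.30, FDR = 0.120), and *Apoe* (1.41, SE 0.34, FDR = 0.203). *Slc1a2* and *Apoe* are on the list of astrocyte markers. In oligodendrocytes *Slc1a2* was at 103 ± 41.2 CPM in WT and 37.2 ± 13.9 CPM in *Fmr1*-KO mice, *Ptn* at 369 ± 151 and 134 ± 24.3 CPM, and *Apoe* at 207 ± 113 and 73.7 ± 50.6 CPM. The part of RNA of astrocytes in these values was not tested. Against excitatory neurons 2 of 2919 genes passed. The glutamate transporter *Slc1a3* was at 682 CPM in WT and 694 CPM in *Fmr1*-KO OPC_1 and at 162 ± 70.3 and 105 ± 63.0 CPM in excitatory neurons (difference 1.16, SE 0.18, edgeR FDR = 0.00384). *Sparcl1*, a secreted protein of astrocytes, was at 335 and 299 CPM in OPC_1 and at 480 ± 68.4 and 325 ± 86.7 CPM (difference 1.01, SE 0.18, edgeR FDR = 0.0122). Both are main products of astrocytes, and *Sparcl1* reached 5407 CPM in Astrocytes_1.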

How the data were processed

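The authors aligned InDrop reads to mm10 (TopHat2 2.0.14, after bcl2fastq, per the submitters' processing notes), counted UMIs per RefSeq gene with ESAT, ignored reads with several positions and removed barcodes below 700 UMIs and some doublet clusters. They deposited raw counts of 17418 genes and, for each cell, the mouse, subtype, lineage cluster and phase call used here. UMIs of OPC_1 cells were summed per mouse and tested with edgeR 4.0.16 (R 4.3.3; quasi-likelihood, TMM, batch and genotype, 3 residual degrees of freedom, Benjamini-Hochberg adjustment), for genes with a UMI in 15% of the cells. The SE is the log2 fold change divided by the root of F. Values within a batch are differences of log2(CPM + 0.5). CPM describe subtypes without a test. Gene positions came from GENCODE vM21. Each mouse is 1 animal with several libraries, and the depth per mouse limits the precision of genes with few UMIs. The script for the fits was tested on simulated data. DESeq2 1.42.0, other filters, thinning to 700 UMIs, other designs and leaving out each mouse were the alternatives.

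Genes named were *Fmr1*, the 4 markers, the 25 genes of at least 100 CPM with the largest ratio to the next subtype, the 10 highest and 10 lowest ratios to oligodendrocytes, called genes, the 8 smallest p in each direction with the same sign within both batches, up to 4 genes of highest CPM per list, and genes of the difference tests. List members with an unadjusted p under 0.05, *Ptn*, *Slc1a2*, *Apoe*, *Sox9*, *Bcas1*, *Sdc3*, *Ntrk3*, *Fxr2* and the genes of the clusters were named after their values were seen. A few genes that meet the rule are left out of the text and figures. The members and gene lists were chosen with earlier results of these data known.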

Additional observations from a re-analysis of the deposited data

Results flagged for a closer look

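The test of the difference of genotype effects between OPC_1 and excitatory neurons drew attention to *Slc1a3*, with a log2 difference of 1.16, and to *Sparcl1*, with 1.01. In OPC_1 *Slc1a3* was at 682 CPM in WT and 694 CPM in *Fmr1*-KO mice and *Sparcl1* at 335 and 299 CPM, and in excitatory neurons they were at 162 and 105 CPM and at 480 and 325 CPM. These means are not adjusted for batch, whereas the differences are fitted with the batch by cell type term, so the means alone do not give them. Without the batch by cell type term, with the replicate block, with cells thinned to 700 UMIs or without WT 1, 0 genes passed. Single mice standing apart from their group of 3 were not tested for.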

How the results depend on the processing

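*Fmr1* was lower in *Fmr1*-KO mice under every alternative of this fit. Its log2 fold change of -1.78 became -1.85 without the batch term (FDR = 0.119), -1.86 with the replicate block (FDR = 0.0142), -1.58 with thinned cells (FDR = 0.994) and -1.71 in cells called G1, a setting added after seeing the data (FDR = 0.0218), and each of these lost the call. It ranged from -2.11 to -1.42 when 1 mouse was left out. Accordingly, 0 genes were called without the batch term, with the replicate block and in G1 cells. Thinned cells gave 1 call, *Rps27* in place of *Fmr1*. Testing every gene with a UMI gave 5 calls, *Fmr1*, *Rps27*, *Ccl3*, *Ccl4* and *Cxcl10*, and leaving out 1 mouse gave 0 to 11, with 11 without WT 1, 9 of them ribosomal protein genes. DESeq2 called *Fmr1* alone (39 genes at an unadjusted p under 0.05). Same-numbered mice deviated from the means of their genotypes with correlations of 0.51, -0.32 and 0.57, with batch not removed. WT 1 and *Fmr1*-KO 1 shared a batch, as did WT 3 and *Fmr1*-KO 3, but WT 2 and *Fmr1*-KO 2 did not. These correlations therefore cannot tell whether replicate numbers pair the mice. The cause of the changes in calls was not tested.

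The count of genes whose genotype effect differed from excitatory neurons, 2 in the design used, was 0 without the batch by cell type term, with the replicate block and with thinned cells, and 0 to 5 without 1 mouse (0 without WT 1). Against Astrocytes_1 it was 0 to 6 and against oligodendrocytes 0 to 1. OPC_1 cell numbers turned from 0.15 to -0.062 among lineage cells only and ranged from 0.06 to 0.24 without 1 mouse. The difference in cells with division genes, 0.35 percentage points, turned to -1.14 with each barcode counted once, and ranged from -2.64 (without WT 3) to 3.01, with -2.57 without *Fmr1*-KO 2. Marker levels moved by less than the SD over mice. Without a mouse *Pdgfra* ranged from 3198 to 3383 CPM, *Cspg4* from 841 to 900, *Olig2* from 1089 to 1129 and *Sox10* from 1115 to 1170. *Grm5* turned from -0.51 to 0.0034 with thinned cells. The fit without cells holding a UMI of the division lists was not run, since 50 OPC_1 cells were left.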

Other observations

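Of the genes called when every gene was tested, *Ccl3*, *Ccl4* and *Cxcl10*, chemokines that microglia make, rested on 1 mouse. *Ccl3* had 173 UMIs in OPC_1 of WT 2 and 1, 2, 1, 4 and 15 in WT 1, WT 3 and the 3 *Fmr1*-KO mice, and *Ccl4* had 174 against 9, 2, 14, 4 and 17. *Cxcl10* had 50 UMIs in WT 2 and 1 each in WT 1 and *Fmr1*-KO 2. Cluster 7 held 67.9%, 69.5% and 73.1% of the UMIs of these genes in OPC_1. None reached the 15% of cells required above, as a UMI was found in 2.46%, 3.07% and 1.08% of OPC_1 cells.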
